A study of Mus musculus with 6 samples.

Results

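The chromatin around 10 genes was examined: those for the methyltransferase MLL (Kmt2a), its cofactors menin (Men1) and LEDGF (Psip1), the methyltransferase DOT1L (Dot1l), and the recurrent MLL fusion partners ENL (Mllt1), AF9 (Mllt3), AF10 (Mllt10), AF4 (Aff1), AF5q31 (Aff4) and ELL (Ell). Every ATAC-seq peak that overlapped the body of 1 of these genes or the 10 kb on either side of it was taken (mm10, GENCODE M21), which gave 120 of the 112852 regions found in the genome. Of these, 13 were promoters of the 10 genes, 79 lay within the gene bodies, 8 were promoters of neighbouring genes and 20 lay in the flanks. The genes were taken for their roles and not for a measured change, although earlier results of these data were known.

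MLL deposits methylation on lysine 4 of histone H3 at active promoters. In MLL-rearranged leukemia its N-terminus is joined to a partner protein, and the fusion is held on chromatin through menin, which binds the MLL N-terminus, and LEDGF, a reader of methylated chromatin. ENL, AF9, AF4, AF5q31 and ELL belong to elongation complexes that release paused RNA polymerase, and AF9, ENL and AF10 also contact DOT1L, which methylates lysine 79 of histone H3 in transcribed genes.

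The samples were L-GMP cells, leukemic granulocyte-macrophage progenitors that the labels also call AML LSCs, of genotype WT and from blood, grown with IL3, with 3 Control samples and 3 samples treated with MMF for 24 h. MMF is mycophenolate mofetil, a prodrug of an inhibitor of IMPDH, the enzyme that commits purine synthesis to guanine nucleotides. All 6 samples share an MLL-AF9 fusion that the study introduced into mouse progenitors with a retrovirus. The study's methods, unlike the source given here, name bone marrow or spleen as the origin of the LSCs. The labels give no dose, and the study's methods and its legends differ in dose and duration. Nothing in the labels says that the 3 samples of a group came from separate mice or cultures. The p-values below therefore rest on the spread between these samples, which may be technical.

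The lists held 58496 to 63911 peaks in Control and 80893 to 86556 in MMF, and the median peak had 14 to 19 reads over its summit. Promoter peaks of L-GMP markers were present in all 6 lists for 8 of 10 genes, in 5 lists for Cd34 and in none for Mpo, whereas 0 of 6 T and B cell markers had a promoter peak in any list. Among markers of other cells, Klf1, Col1a1 and Epcam had promoter peaks in all 6 lists, Cdh1 in 4, Hbb-bt and Col1a2 in 1, and Gata1 in none. A lower value in such bulk samples can mean fewer cells with an open site or less opening per cell, and these cannot be told apart.

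Values are given as depth-scaled summit reads, the reads over the summit of a peak divided by the genome-wide background reads of that sample, so that 100 means 100 times the background. On this scale the median of the 41182 regions held by all 6 samples rose by 0.16 log2 units with MMF. Centred differences, which set the median region near 0, are therefore the ones tested beside the ranks. Ranks by fold enrichment, the reads over the summit relative to the local background around it, were the first measure tested. Both were fitted with limma over all 41182 shared regions, with Benjamini-Hochberg adjustment over all of them. In limma the variance of a region is drawn toward that of all shared regions. Its p-values and SE therefore do not reflect the spread at that region alone.

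The windows of 200 bases around the summits that the following results turn on are printed first, from the plus strand of GRCm38. Capitals mark matches on either strand to the consensus letters of C/EBP (TTGCNNAA), PU.1 (GAGGAAGT), RUNX (AACCACA), AP-1 (TGANTCA), ELK1 (CCGGAAGT), NF-Y (CCAATNA), KLF1 (CCNCNCCC) and CTCF. The ELK1 and PU.1 letters share GGAAGT, and matches to the KLF1 letters can overlap each other. The first 3 are Aff1 elements with the largest ratio of MMF to Control summit reads among the shared regions of the 10 genes, 2 in introns and 1 just past the end of the gene.
Aff1 intron, chr5:103746890-103747089: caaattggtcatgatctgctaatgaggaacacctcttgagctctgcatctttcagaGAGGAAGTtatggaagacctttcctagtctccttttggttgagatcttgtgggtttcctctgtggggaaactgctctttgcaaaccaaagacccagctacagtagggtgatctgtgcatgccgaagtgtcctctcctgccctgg
Aff1 intron, chr5:103732698-103732897: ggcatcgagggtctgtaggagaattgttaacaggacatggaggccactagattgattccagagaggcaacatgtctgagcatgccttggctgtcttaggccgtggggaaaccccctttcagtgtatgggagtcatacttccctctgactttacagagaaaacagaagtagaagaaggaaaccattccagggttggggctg
Aff1 3′ flank, chr5:103856409-103856608: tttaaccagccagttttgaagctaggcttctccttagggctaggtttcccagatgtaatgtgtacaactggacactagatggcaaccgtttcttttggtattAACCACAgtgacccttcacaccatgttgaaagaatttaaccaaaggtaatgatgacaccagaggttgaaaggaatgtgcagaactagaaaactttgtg
The next is the region lost with MMF, and the one after it a region gained, both in Aff1 introns.
Aff1 intron, lost, chr5:103744734-103744933: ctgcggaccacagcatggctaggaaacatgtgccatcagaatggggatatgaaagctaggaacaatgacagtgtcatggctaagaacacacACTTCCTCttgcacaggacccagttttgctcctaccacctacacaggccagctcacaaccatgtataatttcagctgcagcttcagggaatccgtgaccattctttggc
Aff1 intron, gained, chr5:103838715-103838914: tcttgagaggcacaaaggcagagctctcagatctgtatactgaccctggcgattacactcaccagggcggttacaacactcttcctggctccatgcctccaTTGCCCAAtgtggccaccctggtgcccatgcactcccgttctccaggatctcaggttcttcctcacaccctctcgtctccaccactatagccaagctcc
The following are the only region that the rank test called lower, in Mllt10, and the exonic Aff4 region, which had the smallest p of that rank test in the higher direction.
Mllt10 intron, chr2:18158130-18158329: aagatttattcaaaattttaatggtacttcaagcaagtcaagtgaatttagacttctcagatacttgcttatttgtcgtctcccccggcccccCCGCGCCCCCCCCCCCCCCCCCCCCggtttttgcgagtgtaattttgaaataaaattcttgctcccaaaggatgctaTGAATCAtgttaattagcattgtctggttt
Aff4 exon, chr11:53411855-53412054: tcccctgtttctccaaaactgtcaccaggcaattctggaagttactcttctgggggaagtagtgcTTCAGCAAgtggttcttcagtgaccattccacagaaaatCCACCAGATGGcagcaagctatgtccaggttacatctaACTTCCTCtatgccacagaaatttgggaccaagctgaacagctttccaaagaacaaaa
The last is the promoter with the highest summit reads of the 10 genes, whose window holds KLF1 and RUNX letters, found in 53.7% and 3.82% of all promoter windows.
Ell promoter, chr8:70539212-70539411: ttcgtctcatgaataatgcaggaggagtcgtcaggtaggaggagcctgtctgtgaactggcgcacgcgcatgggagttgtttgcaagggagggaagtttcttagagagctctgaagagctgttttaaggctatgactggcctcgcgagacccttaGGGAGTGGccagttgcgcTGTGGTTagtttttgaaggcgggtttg

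The promoters of all 10 genes were open in every sample. Of their 13 promoter regions, 12 had a peak in all 6 lists, which was 92.3% against 68.8% of all 17013 promoter regions of protein-coding genes. The remaining one was a small Aff1 peak 913 bases past the start of the gene, seen in 1 Control list. Mllt10 and Aff1 each had 2 promoters, an upstream one and an internal one. Of the 79 regions within the genes, 27 had a peak in all 6 lists, 34.2% against 29.7% of all intragenic regions. Regions seen in 1 list only made up 26 of these 79, or 32.9% against 26.4% of all intragenic regions.

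The promoters were wide and rich in CpG, and the elements within the genes were not. The median width was 1120 bp at the 12 shared promoters and 503 bp at the 27 shared intragenic regions, against 822 and 508 bp over all shared promoters and intragenic regions. Around the summits the median GC content was 74.2% at the promoters and 49.5% within the genes, against 64.5% and 49.5% over all shared regions of each kind. The ratio of observed to expected CpG was 0.796 at the promoters and 0.112 within the genes, beside 0.822 and 0.233 over the same regions. The median depth-scaled value of the shared promoters lay between 81.6 and 96.9 in the Control samples and between 70.9 and 87.1 in the MMF samples. That of the shared intragenic regions lay between 19.2 and 25.8 in Control and between 28.6 and 34.0 in MMF, so the promoters stood above the inner elements in all 6 samples.

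The 2 kinds of element also held different sequence matches. The KLF1 letters were found at 12 of 13 promoters (92.3%, against 53.7% of all promoters) and at 9 of 79 intragenic regions (11.4%, against 19.5%). The fixed letters of KLF1 are all C, and the part of the GC content given above in these shares was not tested. The AP-1 letters were found at 18 intragenic regions (22.8%, against 17.8%) and at 0 of 13 promoters (against 5.79%). C/EBP letters were present at 13 intragenic regions (16.5%, against 15.7%), PU.1 letters at 9 (11.4%, against 8.87%) and RUNX letters at 8 (10.1%, against 11.9%). The Mllt1 promoter was the only region of the 10 genes with the ELK1 letters, which 5.35% of all promoters held, and the NF-Y letters were at 0 of 13 promoters against 12.8% of all promoters. The NF-Y letters ask for CCAAT followed by any base and then an A. The window of the Mllt1 promoter holds CCAAT followed by AG, which was therefore not counted, and CCAAT alone was not searched. A match describes the reference letters in the window and is not a bound site.

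With MMF, promoters and inner elements differed in opposite directions from the median region. The median centred log2 difference was -0.40 over the 12 shared promoters and 0.25 over the 27 shared intragenic regions. All 12 promoters had a centred difference below 0, and 20 of the 27 intragenic regions had one above 0. The same split was present across the genome, with medians of -0.27 over 11712 shared promoters, of which 83.6% were below 0, and 0.16 over 14936 shared intragenic regions, of which 63.7% were above 0. Without centring, the medians were -0.22 at the promoters and 0.43 within the genes, against -0.09 and 0.34 across the genome, and 11 of 12 promoters were lower, the exception being Aff4. By percentile rank within a list, which depends on list length, the medians were -2.33 points at the promoters and 9.14 within the genes, against -0.26 and 8.4 across the genome. Ranked among shared regions only, they were -13.5 and 2.56, against -6.48 and 1.51. With lists cut to equal length, they were -10.3 and 4.08, against -5.75 and 0.618.

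Few single regions passed a test. On the rank scores limma called 0 of 51 shared regions higher, where it called 1.44% of all shared regions higher, and 1 lower, where it called 0.425% lower. At an unadjusted p below 0.05, 6 of the 51 were higher and 9 lower, beside 4944 and 4605 of the 41182. On the centred reads limma called 5 higher and 3 lower, where it called 10.0% and 2.81% of all shared regions. The 5 were 3 regions within Aff1, 1 past its end and 1 in Aff4. Uncentred reads gave 10 higher and 1 lower, where 18.6% and 0.969% of all shared regions were called. These counts do not stand apart from the genome-wide shares.

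Of the 12 shared promoters, 0 were called on the rank scores, where 0.179% of all shared promoters were called higher and 0.435% lower, and 4 of 12 had an unadjusted p below 0.05 in the lower direction, beside 17.4% of all shared promoters. On the centred reads 0 of 12 were called, where 1.59% were called higher and 4.45% lower, and 6 of 12 had an unadjusted p below 0.05 in the lower direction, beside 26%. Of the 27 shared intragenic regions, 0 were called higher and 1 lower on the rank scores, against 1.9% and 0.362%, with 4 higher and 2 lower at an unadjusted p below 0.05, or 14.8% and 7.41% beside 16.5% and 8.4%. On the centred reads 4 were called higher and 1 lower, against 14.1% and 1.89%.

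By the order of the samples, the 3 MMF values all exceeded the Control values at 15 of the 51 regions, against 29.1% of all shared regions, and all fell short of them at 6, against 7.65%. Among the promoters these numbers were 0 and 2 of 12, against 7.78% and 16.6%, and the 2 were Ell and the upstream Aff1 promoter. Within the genes they were 12 and 1 of 27, against 39.2% and 3.56%.

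**Figure D1:**
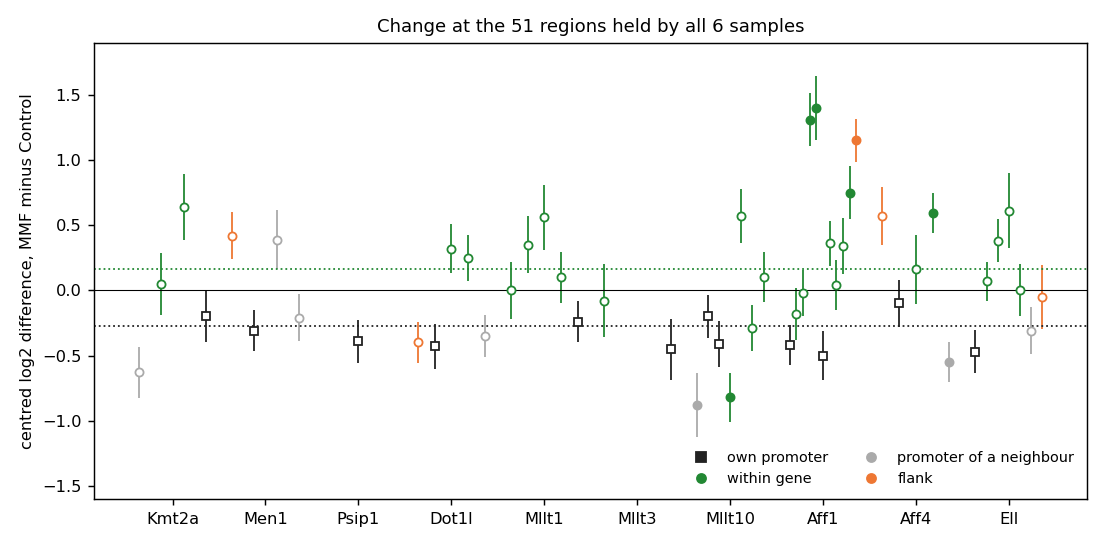
Centred log2 difference in depth-scaled summit reads, MMF minus Control, with its standard error, for the 51 regions of the 10 genes with a peak in all 6 samples, in genomic order within each gene. Filled marks had an adjusted p below 0.05, and dotted lines are the medians of all shared promoters (-0.27, black) and all shared intragenic regions (0.16, green). The squares of the own promoters all lie below 0, and the 3 highest marks belong to Aff1.

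Kmt2a encodes MLL itself. Its promoter (chr9:44880839-44882290) had depth-scaled values of 79.6, 111 and 123 in Control and 91.3, 102 and 111 in MMF, so the groups overlapped. The centred difference was -0.20 ± 0.194 (SE, adjusted p = 0.487, limma). The highest-ranked intragenic region of the gene, in an intron 23614 bases from the start (chr9:44857472-44857937), had values of 9.6, 10.1 and 12.9 in Control and 14.3, 17.0 and 28.1 in MMF. The 3 MMF values were all higher, at a centred difference of 0.64 ± 0.252 (SE, adjusted p = 0.115).

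Of the 10 intragenic regions of Kmt2a, 4 had their summit in an exon, or 40%, against 7.83% of all intragenic regions of protein-coding genes. The share over all genes does not allow for the exon content of a gene. These 4 lay in the coding parts of exons 3, 4, 9 and 11. Those in exons 4 and 9 were each seen in 1 Control list, with 7 and 4 summit reads. That in exon 3 was seen in 3 lists, with 5 to 11 summit reads. Only the one in exon 11 (chr9:44836478-44836867) was present in all 6 lists. Its values were 9.6, 13.0 and 16.1 in Control and 13.2, 12.7 and 19.2 in MMF, which overlapped. The retroviral fusion contains MLL and AF9 coding sequence, whose fragments could align to exons of these genes, and its part in these peaks was not tested. No intragenic region of Mllt3, the gene for AF9, had its summit in an exon.

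Men1 encodes menin, the scaffold between MLL and LEDGF. Its promoter (chr19:6334316-6335142) had values of 123, 111 and 131 in Control and 106, 118 and 111 in MMF, which overlapped, with a centred difference of -0.31 ± 0.156 (SE, adjusted p = 0.201). The gene is 5.91 kb long, and no peak lay within it outside a promoter. An upstream region in the flank (chr19:6331160-6331558) had values of 37.0, 30.4 and 33.9 in Control and 55.0, 43.9 and 54.7 in MMF. All 3 MMF samples were higher there, at a rank score difference of 0.96 ± 0.299 (SE, adjusted p = 0.115) and a centred difference of 0.42 ± 0.179 (SE, adjusted p = 0.137), and neither passed.

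Psip1 encodes LEDGF, which ties menin and MLL to chromatin. Its promoter (chr4:83485651-83486827) was the only region of the gene in all 6 lists. The values were 83.7, 96.9 and 79.0 in Control and 67.1, 76.5 and 79.8 in MMF, so that 2 of 3 MMF samples lay below the Control range. The centred difference was -0.39 ± 0.166 (SE, adjusted p = 0.133). The 3 intragenic peaks of Psip1 were each seen in 1 MMF list, with values from 8.87 to 12.7.

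Dot1l encodes the H3K79 methyltransferase. Its promoter (chr10:80754892-80755494) had values of 111, 101 and 85.5 in Control and 73.7, 93.5 and 82.8 in MMF, which overlapped, with a centred difference of -0.43 ± 0.175 (SE, adjusted p = 0.123). The highest-ranked intragenic region, in an intron 8465 bases into the gene (chr10:80763288-80764076), had values of 64.5, 81.0 and 64.5 in Control and 81.4, 120 and 97.6 in MMF. There the MMF samples were all higher, at a centred difference of 0.32 ± 0.188 (SE, adjusted p = 0.251). A second intronic region (chr10:80774116-80774947) went from 28.8, 31.8 and 40.3 to 45.1, 48.2 and 41.4, also without overlap (adjusted p = 0.338 on the centred reads). Both windows held the RUNX letters, found in 11.9% of intragenic windows.

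**Figure D2:**
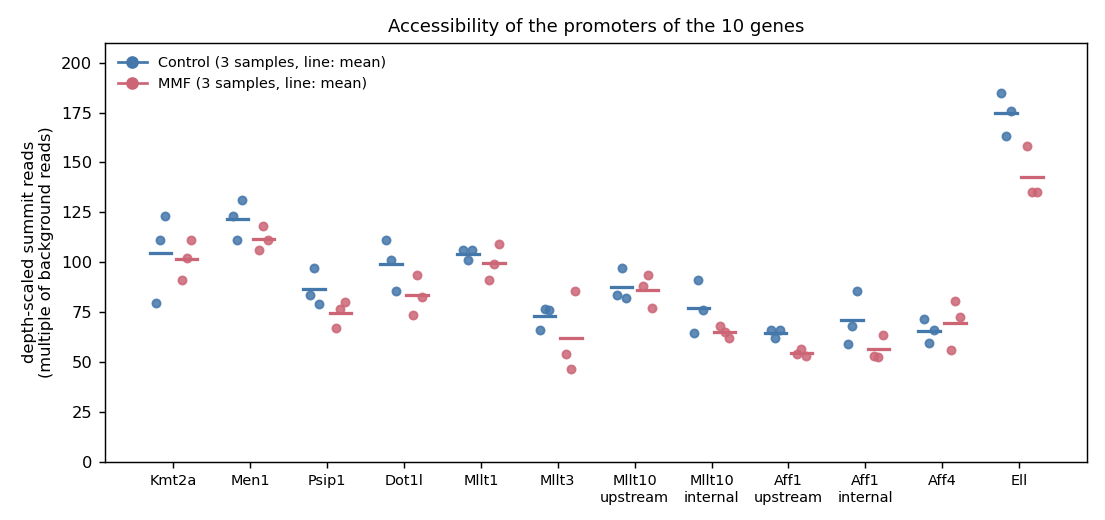
Depth-scaled summit reads at the 12 promoters of the 10 genes that had a peak in all 6 samples, with 1 point for each sample and a line at the mean of each group of 3. The Ell promoter is the highest in both groups, and only at the upstream Aff1 promoter and the Ell promoter do the groups not overlap.

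The 12 promoters differed in level. In Control the mean was 175 ± 10.9 (SD, n = 3) at Ell, 122 ± 9.73 at Men1, 104 ± 22.3 at Kmt2a, 104 ± 2.8 at Mllt1 and 99.3 ± 12.9 at Dot1l. Lower values were 87.6 ± 8.08 at the upstream Mllt10 promoter, 86.5 ± 9.28 at Psip1, 77.1 ± 13.4 at the internal Mllt10 promoter and 72.8 ± 6.0 at Mllt3. The lowest were 70.8 ± 13.5 at the internal Aff1 promoter, 65.6 ± 6.04 at Aff4 and 64.7 ± 2.2 at the upstream Aff1 promoter. Only Ell stood clear of its neighbour in this order, with every Control value above every one of Men1.

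Ell encodes an elongation factor and MLL partner. Its promoter (chr8:70538691-70539756) had values of 185, 163 and 176 in Control and 158, 135 and 135 in MMF, so the MMF values all lay below the Control values. The ratio of the means was 0.815, with a centred difference of -0.47 ± 0.165 (SE, adjusted p = 0.0832) and a rank score difference of -0.57 ± 0.233 (SE, adjusted p = 0.191). The highest-ranked inner region, in an intron (chr8:70549530-70550191), moved the other way, from 68.6, 69.4 and 77.4 to 91.3, 120 and 106, with a centred difference of 0.38 ± 0.164 (SE, adjusted p = 0.143). Neither passed, although the groups did not overlap at either.

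Mllt1 encodes ENL, a reader of acylated histones. Its promoter (chr17:56935184-56936066) had values of 106, 101 and 106 in Control and 91.3, 99.2 and 109 in MMF, which overlapped (centred difference -0.24 ± 0.158, SE, adjusted p = 0.301). The highest-ranked inner region, an intron 5179 bases from the start (chr17:56929550-56930380), had 28.8, 23.1 and 27.4 in Control and 26.4, 31.2 and 39.9 in MMF, again overlapping (0.10 ± 0.196, SE, adjusted p = 0.735). Mllt1 was 1 of 2 loci, with Ell, where all 3 MMF lists held more peaks than any Control list.

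Mllt3 encodes AF9, the partner in the fusion that drives these cells. Its promoter (chr4:88032694-88033618) had 65.9, 76.7 and 75.8 in Control and 53.9, 46.7 and 85.7 in MMF. MMF replicate 3 was the highest of all 6 samples and MMF replicate 2 the lowest, so the MMF group spread widely (62.1 ± 20.8, SD, n = 3), and the centred difference was -0.45 ± 0.234 (SE, adjusted p = 0.205). The gene is 263 kb long, the longest of the 10, yet it had 8 regions, of which the promoter and 1 weak intron region (chr4:88005854-88006186) were in all 6 lists. The intron values were 9.6, 13.0 and 12.9 in Control and 19.8, 11.3 and 8.87 in MMF, which overlapped (centred difference -0.08 ± 0.281, SE, adjusted p = 0.868).

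Aff4 encodes the scaffold of the super elongation complex. Its promoter (chr11:53350350-53351283) had 71.3, 59.3 and 66.1 in Control and 56.1, 80.7 and 72.4 in MMF, which overlapped. The ratio of the means was 1.06, but relative to the median region the difference was -0.10 ± 0.181 (SE, adjusted p = 0.721), so its direction depended on the scaling. A region of 259 bp in coding exon 20 (chr11:53411825-53412083) rose from 11.0, 11.6 and 11.3 to 19.8, 18.4 and 19.2 with no overlap. On the centred reads the difference was 0.59 ± 0.153 (SE, adjusted p = 0.0355, limma), while on the rank scores it was 0.79 ± 0.206 (SE, adjusted p = 0.0811). The window printed above for this exon held C/EBP, PU.1 and CTCF letters, which were in 15.7%, 8.87% and 6.22% of all intragenic windows. The centred call was lost when any 1 sample was left out, at differences between 0.55 and 0.63.

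Mllt10 encodes AF10, a DOT1L cofactor. Its upstream promoter (chr2:18056174-18057383) had 83.7, 96.9 and 82.2 in Control and 88.0, 93.5 and 76.9 in MMF, and its internal promoter (chr2:18063810-18065835) had 64.5, 91.1 and 75.8 and then 68.2, 65.2 and 62.1. The groups overlapped at both, with centred differences of -0.20 ± 0.163 and -0.41 ± 0.175 (SE, adjusted p = 0.403 and 0.14). The highest-ranked inner region (chr2:18195442-18196211) had 48.0, 63.6 and 46.8 in Control and 51.7, 72.2 and 68.0 in MMF, with a centred difference of 0.10 ± 0.193 (SE, adjusted p = 0.744).

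A small intronic Mllt10 region of 167 bp (chr2:18158136-18158302) was the only one called lower on the rank scores. It went from 12.3, 17.4 and 17.7 to 9.9, 11.3 and 8.87, so the MMF values were all lower. The rank score difference was -1.28 ± 0.262 (SE, adjusted p = 0.0495, limma) and the centred difference -0.82 ± 0.188 (SE, adjusted p = 0.0226). The call rested on 9, 12 and 11 summit reads in Control and 9, 8 and 6 in MMF. Its window, printed above, holds a run of 20 identical bases, and the part of that run in the result was not tested. The rank call was lost when any 1 sample was left out, at differences between -1.48 and -1.12 in fits that called 0 of 41182 regions lower. It was also lost with ranks in the full list (-0.85, adjusted p = 0.0739) and among regions with a peak in at least 2 lists of each group (-1.25, adjusted p = 0.0696), and with equal list length the region was not in all 6 lists and was not tested. The centred call was lost without Control replicate 2 or 3 or MMF replicate 1 or 3, at differences between -0.83 and -0.74.

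Neighbouring promoters gave the other lower calls on the centred reads. Next to Mllt10, the promoter of Skida1 (chr2:18047397-18048369) fell from 27.4, 21.7 and 33.9 to 18.7, 21.2 and 11.8 (centred difference -0.88 ± 0.245, SE, adjusted p = 0.0432). The call at Skida1 was lost without Control replicate 1 or 3 or without any 1 MMF sample, at differences between -1.03 and -0.64. The other was the shared promoter region of Gdf9 and Uqcrq next to Aff4 (chr11:53430314-53431570). It fell from 198, 210 and 200 to 143, 170 and 157, and lost the call when any 1 sample was left out, at differences between -0.59 and -0.50.

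Aff1 held the called regions with the largest ratio of MMF to Control. The gene encodes AF4, a founding member of the AF4 family of elongation scaffolds, spans 163 kb and had 30 regions, the most of the 10. The intronic region 54616 bases from the start of the gene (chr5:103746569-103747434) had values of 28.8, 18.8 and 29.0 in Control and 88.0, 56.7 and 84.3 in MMF. The lowest MMF value exceeded the highest Control value, at 2.99 times the Control mean and a centred difference of 1.40 ± 0.245 (SE, adjusted p = 0.00841, limma). Of all shared intragenic regions, 1.02% had a centred difference at least as large. Its window holds the PU.1 letters, which 8.87% of intragenic windows contained.

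A second intronic region of Aff1, 40424 bases from the start (chr5:103732278-103733012), went from 9.6, 11.6 and 12.9 to 26.4, 29.7 and 39.9. It too did not overlap, at 2.82 times the Control mean and a centred difference of 1.31 ± 0.202 (SE, adjusted p = 0.00576), which 1.56% of shared intragenic regions reached. The region past the 3′ end of the gene (chr5:103856364-103856705) went from 22.0, 21.7 and 17.7 to 53.9, 52.4 and 47.3, or 2.5 times the Control mean, at 1.15 ± 0.168 (SE, adjusted p = 0.00498). The window of this last region holds the RUNX letters, found in 10.7% of all windows. These 3 calls held without each sample in turn, at differences of 1.19 to 1.62, 1.13 to 1.42 and 1.04 to 1.21. A weaker one in the UTR part of exon 20 (chr5:103854173-103854438) went from 13.7, 13.0 and 11.3 to 20.9, 21.2 and 31.0 (0.75 ± 0.203, SE, adjusted p = 0.0396) and lost the call when any 1 sample was left out, at differences between 0.55 and 0.86.

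None of these 4 Aff1 regions passed on the rank scores, which use the fold enrichment over the local background. Their rank score differences were 1.02 ± 0.331 and 0.92 ± 0.265 at the 2 introns, 0.47 ± 0.239 past the gene and 0.15 ± 0.33 in the UTR (SE, adjusted p = 0.127, 0.0996, 0.269 and 0.814, limma). The local background at their summits, as a multiple of the genome-wide one, also rose. At the intron 54616 bases from the start it went from 2.14, 1.91 and 1.67 to 4.22, 3.53 and 4.12. At the other intron it went from 1.0 in each Control sample to 2.01, 2.15 and 2.39. The value 1.0 is the lowest possible, because the genome-wide background was taken as the lowest local background of each list. Past the end of the gene it went from 2.39, 2.13 and 2.23 to 4.45, 4.29 and 5.14.

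The rise in local background was 2.18 times at the intron 40424 bases from the start, counted from that lowest value in Control. It was 2.08 times at the intron 54616 bases from the start, 2.06 times past the gene and 1.92 times in the UTR. Among all shared regions, 0.253%, 0.427%, 0.469% and 0.901% had a rise at least as large. At the 2 Aff1 promoters the local background changed by 1.02 and 1.01 times, and the groups overlapped. The window that the peak caller used for this background is not given in the sources used here and may take in reads of the peak itself and of peaks nearby, so the parts of these in the rise were not told apart. Over all 10 genes the local background was higher in every MMF sample at 15 of the 51 shared regions, against 30.4% of all shared regions, and at 14 of the 27 shared intragenic regions, against 39.6% of all shared intragenic regions.

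The Aff1 promoters did not rise. The upstream one (chr5:103691562-103692860) had 65.9, 62.2 and 66.1 in Control and 53.9, 56.7 and 53.2 in MMF, with every MMF sample lower, a ratio of 0.843, a centred difference of -0.42 ± 0.151 (SE, adjusted p = 0.0894) and a rank score difference of -0.67 ± 0.201 (SE, adjusted p = 0.107). The internal one (chr5:103753128-103754503) had 59.0, 68.0 and 85.5 and then 52.8, 52.4 and 63.6, a ratio of 0.794, with overlap between the groups (centred difference -0.50 ± 0.188, SE, adjusted p = 0.102). The highest-ranked inner region of Aff1 (chr5:103705739-103706367) had 74.1, 83.9 and 53.2 in Control and 63.8, 69.4 and 73.9 in MMF, a ratio of 0.981.

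**Figure D3:**
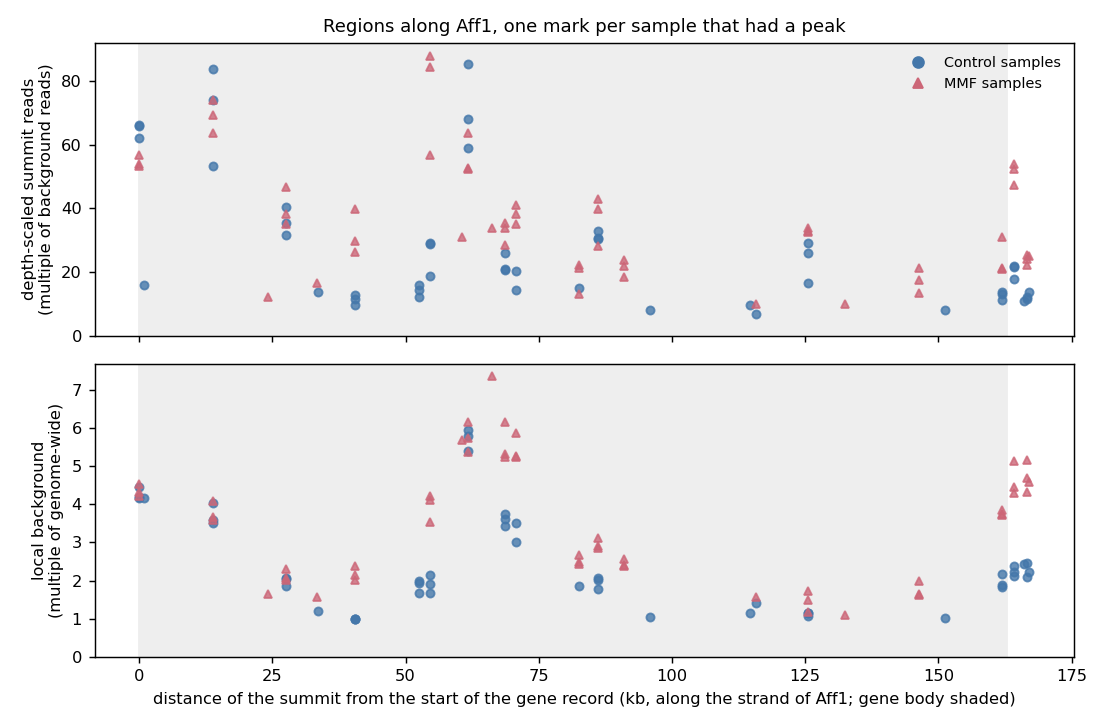
Regions along Aff1 by the distance of their summit from the start of the gene in kb, with 1 mark for each sample that had a peak there. The upper panel gives depth-scaled summit reads and the lower panel the local background as a multiple of the genome-wide one. Near 40 and 55 kb and past the gene end the MMF marks lie above the Control marks in both panels, and at the promoters at 0 and near 62 kb the groups are close or MMF is lower.

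Of the 120 regions, 6 were gained, with a peak in all 3 MMF lists and in no Control list. That is a share of 5.0%, against 6.0% of all regions. With 3 lists against 3 no exact test can fall below p = 0.10, and presence also depends on list length, so these counts were not tested. The gained regions were 2 in Aff1 introns, 1 in an Mllt1 intron and 1 in each of the flanks of Mllt1, Mllt10 and Ell. Within the genes, 3 of 79 were gained, against 6.70% of all intragenic regions, and 0 of 13 promoters, against 1.75%. The printed Aff1 region (chr5:103838318-103839110) had MMF values of 17.6, 21.2 and 13.3 and holds the C/EBP letters, found in 15.7% of intragenic windows, and the other Aff1 region (chr5:103783297-103783572) had 22.0, 18.4 and 23.7.

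The Mllt1 intron (chr17:56895317-56895856) had 20.9, 24.1 and 17.7 in the MMF lists, with the PU.1 letters in its window, and the Mllt1 flank (chr17:56938874-56939081) had 34.1, 29.7 and 47.3. The Ell flank (chr8:70600506-70601154) had 24.2, 22.7 and 39.9, and the Mllt10 flank (chr2:18214036-18214391) had 9.9, 14.2 and 13.3. Only 1 region was lost, with a peak in all 3 Control lists and in no MMF list, against 0.182% of all regions. It was an Aff1 intron (chr5:103744664-103744895) with Control values of 12.3, 15.9 and 14.5, from 9, 11 and 9 summit reads. That made 1 of 79 intragenic regions, against 0.173%, and 0 of 13 promoters, against 0.123%. Its printed window holds the PU.1 letters, and its summit lies 52460 bases from the start of the gene, next to the region at 54616 bases that rose. Without a peak, the MMF reads at the lost site are not known. Peaks are called against the local background, which was higher in every MMF sample at the region at 54616 bases. The part of that background in the missing peak was not tested.

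The number of peaks at the 10 loci together was 70, 79 and 74 in the Control lists and 93, 91 and 92 in the MMF lists, a ratio of means of 1.24, while whole lists grew by 1.37 times. By locus, the groups did not overlap at Mllt1 (5, 7 and 6 peaks, then 9, 10 and 8) and at Ell (9 in each Control list, then 11, 11 and 13). At 21.4% of all protein-coding loci with a peak every MMF list held more peaks than every Control list, and 2 of 10 does not stand apart from that share. Fewer peaks in every MMF list were seen at 0 of 10 loci, against 0.17%. Aff1 had 16 to 19 peaks in Control and 19 to 22 in MMF, Mllt10 9 to 16 and 16 to 18, Kmt2a 6 to 10 and 8 to 10, and Psip1 1 to 2 and 2 in each.

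**Figure D4:**
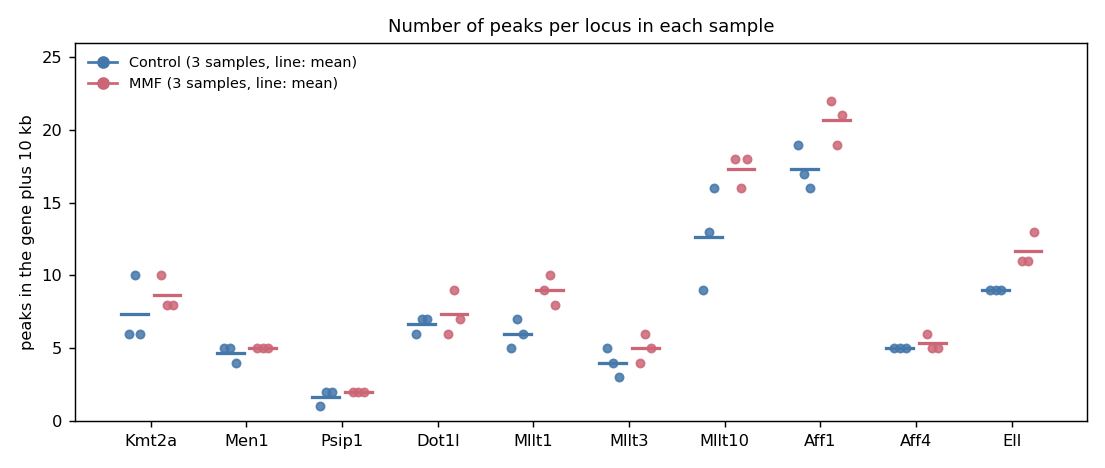
Number of peaks that overlap each gene or the 10 kb on either side of it, with 1 point for each list and a line at the mean of 3. Control and MMF lists do not overlap at Mllt1 and Ell and share values or ranges at the other 8 loci.

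The other genes of the MLL, elongation and PAF1 complexes and further fusion partners gave the same picture at their promoters. Of 37 such genes, 35 had a promoter region in all 6 lists, while Mllt6 had one in 3 lists and Tet1, a DNA demethylase, in none. On the rank scores limma called 0 of the 35 in either direction, where it called 0.179% of all shared promoters higher and 0.435% lower, and 12 of 35 had an unadjusted p below 0.05, beside 19.2%. On the centred reads it called 1 higher and 1 lower, where it called 1.59% and 4.45%. The median centred difference was -0.36, with 34 of 35 below 0, beside -0.27 and 83.6% for all shared promoters. By group, 5 of 5 MLL family genes, 6 of 6 shared methyltransferase subunits, 7 of 7 elongation genes and 6 of 6 PAF1 genes were below 0. Among them only the promoter of Ell3 passed, on the centred reads.

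Ell3, an ELL paralog, fell from 22.0, 30.4 and 29.0 to 18.7, 19.8 and 14.8 with every MMF sample lower (centred difference -0.78 ± 0.189, SE, adjusted p = 0.0267 and rank score adjusted p = 0.0669). Gas7, a cytoskeletal protein and rare MLL partner, rose from 20.6, 33.3 and 33.9 to 53.9, 80.7 and 54.7 with no overlap, at 2.16 times (centred difference 0.94 ± 0.233, SE, adjusted p = 0.0295 and rank score adjusted p = 0.198). The next smallest p on the rank scores in the lower direction were at Hcfc2, a paralog of the methyltransferase subunit HCF1, and Cdk9, the kinase that releases paused polymerase (adjusted p = 0.0829 and 0.115). Cdk9 went from 158, 140 and 158 to 121, 115 and 133, and Hcfc2 from 56.3, 53.5 and 58.0 to 42.9, 48.2 and 54.7, with overlap at Hcfc2 only. In the higher direction they were Tasp1, the protease that cleaves MLL, and Cdc73 of the PAF1 complex (adjusted p = 0.522 and 0.876), and their groups overlapped. Tasp1 went from 97.4, 95.5 and 102 to 109, 97.7 and 121, and Cdc73 from 42.5, 65.1 and 91.9 to 67.1, 90.7 and 57.7.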

How the data were processed

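The authors tagmented sorted cells with Tn5, trimmed the reads (Trim Galore), aligned them to mm10 (Bowtie2) and deposited 1 MACS2 peak list per sample. Versions and MACS2 options are not given in the sources used here, nor is any shift of reads for the Tn5 cut. The deposited fold enrichment was read as summit reads plus 1 over local background plus 1, with p and q as −log10 values. The added 1 exceeds the genome-wide background of each sample (0.620 to 0.909 reads), so fold enrichments of weak peaks also depend on depth. The deposited score was not used. The differential test of the study (PePr) needs reads and was not repeated. Peaks describe called sites only.

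Peaks on chromosomes 1 to 19, X and Y were merged into regions at 1 bp of overlap. Promoters reach 1000 bp on either side of a start in GENCODE M21. Summit reads and local background were solved from fold enrichment and p. Where the first solution was not whole within 0.02 reads, a whole number was searched for instead. It was taken where its −log10 p lay within 0.02 of the deposited one. After both steps all were whole within 0.02, which for peaks solved by the search is no check. Each divided by the genome-wide background of its sample (0.620 to 0.909 reads) gives the depth-scaled values. Regions with 6 of 6 lists, called shared, entered limma (version 3.58.1, R 4.3.3) as normal scores of ranks by fold enrichment, ranked again among shared regions, at an adjusted p below 0.05. Centred log2 reads, less the median ratio over shared regions, were added after seeing the data. SD covers the 3 samples of a group. SE is the limma standard error of the difference between groups, with the variance drawn toward that of all shared regions. Statistical steps were tested on simulated data. Motifs were read from 200 bp of GRCm38 at the best-ranked summit with pysam 0.24.0.

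The genes, lists and tests were chosen with earlier results of these data known. Named were the promoters and highest-ranked intragenic region of each gene, each gained, lost or called region, the 3 regions of smallest rank p in each direction, and the same for promoters of the complex genes. Alternatives changed the ranked value, list length, q cutoff, overlap, promoter width, flank and samples.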

Additional observations from a re-analysis of the deposited data

How the results depend on the processing

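The count of regions called higher on the rank scores, 0, became 10 with log2 depth-scaled summit reads, 5 with those reads centred and 4 with ranks in the full list. The count called lower, 1, became 3 with centred reads and 0 with ranks in the full list, equal list length, a peak in at least 2 lists of each group, or the replicate block (Mllt10 rank score -1.28, adjusted p = 0.0952, limma). Without 1 sample in turn, both were 0 (0 to 0), and over all shared regions such fits called 0 to 12 higher and 0 lower, against 594 and 175 with all samples. On centred reads, 5 higher became 3 and 3 lower became 1 with the replicate block, and 3 to 4 and 0 to 1 without 1 sample. Over all shared regions the replicate block called 0 in either direction on rank scores, with 8973 at an unadjusted p below 0.05, against 9549 without it. It called 3510 higher and 667 lower on centred reads, against 4129 and 1156, and there the 3 Aff1 regions of largest ratio passed (adjusted p = 0.0109, 0.0115 and 0.0132, limma). Labels do not say what the numbers share. Same-numbered samples correlated in their rank score deviations by 0.00698, 0.00296 and 0.00422, each the highest for its number but all under 0.1. On centred reads the correlations were -0.00109, 0.004 and -0.00234, and only that of replicate 2 was the highest for its number. Same-numbered samples were therefore not taken as pairs. With ranks in the full list 2402 were higher and 76 lower, with equal list length 972 and 389, and with a peak in at least 2 lists of each group 172 and 21. Gained regions, 6, became 3 with a flank of 0 kb and 6 to 9 without 1 sample. Lost regions, 1, became 2 with equal list length and 1 to 2 without 1 sample. The promoter median, -2.33 points, moved to -13.5 with ranks among shared regions, -10.3 with equal list length and -2.8 to -1.15 without 1 sample. The intragenic median, 9.14 points, moved to 2.56, 4.08 and 7.69 to 10.4 in the same settings. No leading promoter of the 10 genes was called under any alternative run. Centred reads and ranks in the full list were chosen after seeing the data. Small promoter score differences changed sign: Kmt2a (-0.12) was 0.01 with ranks by −log10 p, 0.10 in the full list and 0.06 without Control replicate 3 (-0.33 to 0.06 without 1 sample), and Mllt10 (-0.01) was 0.02 with ranks by −log10 p, 0.22 in the full list and 0.03, 0.06 and 0.05 without Control replicate 1, Control replicate 2 and MMF replicate 2 (-0.12 to 0.06). Psip1 (-0.22) was 0.01 in the full list, and Aff4 (0.06) was -0.10 centred, and -0.07 and -0.01 without MMF replicate 2 or 3 (-0.07 to 0.27). Promoters of other complex genes called went from 0 to 1 higher with uncentred and centred reads, and from 0 to 1 lower with ranks by −log10 p, centred reads and equal list length. Loci where all MMF lists held more peaks, 2, became 1 with equal list length and 2 to 4 without 1 sample. The causes were not tested. Summit reads had a median of 14 to 19, which limits what small differences can show.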
